A study of Mus musculus with 6 samples.

Results

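Ptgs1, Ptgs2, Hpgds, Hpgd, Alox5, Alox5ap, Lta4h, Ltc4s, Ptger2 and Ptger4 are 10 genes of the prostaglandin and leukotriene pathway, and their transcript levels were examined in regulatory T cells of mice. They were taken by gene symbol from a read count table of 24424 named genes and from a second, normalized table of 23393 named genes, and all 10 symbols were present in both. Spleen and peripheral lymph nodes were the source of the sorted cells, and each library is a bulk RNA sample. The study examined how the transcriptome changes when Bcl11b, a zinc finger transcription factor of the T cell lineage, is removed from regulatory T cells.

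There were 3 groups of 2 libraries each. The group named KO EAE carried the strain designation Bcl11bF/WT Foxp3YFP-Cre +/- and came from mice with EAE, experimental autoimmune encephalomyelitis, an induced autoimmune disease of the central nervous system. The KO group had the same strain designation and was taken at steady state. WT mice were Bcl11bF/F with no Cre named, so the floxed allele is present in every group. Cre is expressed from the Foxp3 locus, the gene of the defining transcription factor of regulatory T cells. The designation of the KO and KO EAE mice names 1 floxed and 1 wild-type Bcl11b allele, although the genotype is given as KO. No WT library from mice with EAE was analysed here, so the effect of EAE can be read in KO cells alone. The ages of the mice are not given, and nothing says whether replicates came from separate animals, so p-values measure the spread between these libraries, which may be technical.

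Prostaglandins and leukotrienes are lipid mediators made from arachidonic acid, which phospholipases release from membranes. The cyclooxygenases Ptgs1 and Ptgs2 convert it to the common precursor of the prostaglandins, and terminal synthases such as Hpgds turn that precursor into single products. Alox5, helped by Alox5ap, opens the leukotriene branch, which Lta4h and Ltc4s complete. Hpgd ends prostaglandin signalling by oxidising its ligand, and Ptger2 and Ptger4 are the prostaglandin E2 receptors that raise cyclic AMP in lymphocytes.

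The regulatory windows of 4 of the genes are printed because their levels differed in kind between the groups: Ptgs1, Hpgds and Hpgd were several-fold higher in KO libraries, and Ptger4, a receptor of the same signal, was not. The windows are RefSeq promoters on build GRCm38.p6, each running 5′ to 3′ from upstream of the annotated start into the first transcribed bases. They lie at chr2:36230176-36230475 (plus strand) for Ptgs1, chr6:65144681-65144980 (minus strand) for Hpgds, chr8:56294302-56294601 (plus strand) for Hpgd and chr15:5244138-5244437 (minus strand) for Ptger4. Capitals mark exact matches, on either strand, to 5 short motifs chosen with the expression results known.
Ptgs1: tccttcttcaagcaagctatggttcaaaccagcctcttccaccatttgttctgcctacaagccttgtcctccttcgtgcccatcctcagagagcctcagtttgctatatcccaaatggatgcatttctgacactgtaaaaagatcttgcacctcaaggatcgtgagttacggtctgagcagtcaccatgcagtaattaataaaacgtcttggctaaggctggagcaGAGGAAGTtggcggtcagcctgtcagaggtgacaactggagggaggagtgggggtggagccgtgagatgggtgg
Hpgds: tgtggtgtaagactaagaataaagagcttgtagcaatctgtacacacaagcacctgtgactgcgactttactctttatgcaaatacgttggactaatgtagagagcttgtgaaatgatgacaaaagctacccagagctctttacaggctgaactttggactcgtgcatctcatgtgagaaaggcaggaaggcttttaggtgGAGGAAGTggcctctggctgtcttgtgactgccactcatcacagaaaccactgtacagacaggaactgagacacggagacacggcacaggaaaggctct
Hpgd: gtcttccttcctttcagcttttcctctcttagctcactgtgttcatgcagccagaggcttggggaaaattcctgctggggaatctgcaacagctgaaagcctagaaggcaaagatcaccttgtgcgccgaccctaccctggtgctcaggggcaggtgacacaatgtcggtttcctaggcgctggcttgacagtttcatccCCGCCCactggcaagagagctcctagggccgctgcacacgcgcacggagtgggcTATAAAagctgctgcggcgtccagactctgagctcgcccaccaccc
Ptger4: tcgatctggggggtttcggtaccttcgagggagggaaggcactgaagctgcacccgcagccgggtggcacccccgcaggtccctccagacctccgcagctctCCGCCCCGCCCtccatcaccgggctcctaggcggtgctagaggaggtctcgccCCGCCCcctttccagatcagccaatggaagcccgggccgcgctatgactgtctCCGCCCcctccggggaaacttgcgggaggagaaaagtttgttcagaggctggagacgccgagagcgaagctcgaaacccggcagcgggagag
The windows of Ptgs1 and Hpgds each hold GAGGAAGT, a form of the site of the myeloid and B cell factor PU.1, on the coding strand. The match starts at -24 in Ptgs1 and at -49 in Hpgds, counted from 0 at the RefSeq start of each window. The gene spans given with the levels are GENCODE's: the starts are the same for Ptgs1 and Ptger4, the RefSeq start of Hpgds lies inside its GENCODE span, as does its match, and that of Hpgd lies upstream of its GENCODE start. This motif is present in 3.2% of the 32851 RefSeq promoter windows of the same length. The Hpgd window holds 1 Sp1 motif, GGGCGG, read on the opposite strand as CCGCCC, and 1 TATA box, TATAAA, which starts at 4, downstream of the RefSeq start and upstream of the GENCODE start. The Ptger4 window holds 4 Sp1 motifs on the opposite strand, of which 2 overlap each other. Sp1 matches occur in 35.7% of all windows and TATA box matches in 13.6%. The other motifs searched were TGACCA of BCL11A, found in 13.6% of windows, and the nuclear receptor motif AGGTCA, found in 16.3%. No match to either was found in these 4 windows. Among the other 5 members with a window, Ptgs2 and Alox5 held 1 Sp1 match each, Ltc4s held 1 match to TGACCA, and Lta4h and Ptger2 held no match. Alox5ap has no entry in the promoter table. A match describes the letters in the window and was not tested as a binding site.

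The 6 libraries of the count table held between 14663542 and 16904312 reads in named genes. Levels are given in CPM, read counts scaled to a common library size with TMM factors from edgeR. A floor of 3 reads lay at 0.177 to 0.205 CPM, and such floors cover counting error only. Bcl11b transcripts had 404 and 277 CPM in KO EAE, 371 and 369 CPM in KO and 419 and 424 CPM in WT libraries. Its KO minus WT log2 difference was -0.19 ± 0.17 (SE, edgeR quasi-likelihood adjusted p = 0.527), so this gene was not called in the count table. All KO EAE and KO libraries were nonetheless below both WT libraries. In the second, normalized table, Bcl11b had normalized read counts of 6746 and 5211 in KO libraries, against 10518 and 11371 in WT libraries. The authors' deposited table gives it a log2 fold change of -0.80 with an adjusted p of 7.9e-08. Reads outside the deleted part would be counted whether or not the deletion occurred, and their part in these levels was not tested. Foxp3 was present in all 6 libraries. It had 163 and 149 CPM in KO EAE, 164 and 155 CPM in KO and 210 and 206 CPM in WT libraries. Its KO minus WT log2 difference was -0.38 ± 0.08 (SE, edgeR quasi-likelihood adjusted p = 0.0254). The authors' deposited table gives Foxp3 a log2 fold change of -0.07 with an adjusted p of 0.922. The summed level of 8 T cell markers was 1581 to 1753 CPM.

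Markers of other cell types differed with genotype in the same libraries. The summed level of 15 macrophage and monocyte markers was 1956 and 2177 CPM in KO EAE, 2237 and 2673 CPM in KO, and 296 and 333 CPM in WT libraries. All 15 were higher in KO than in WT libraries by the edgeR test, by 2.08 to 4.40 on the log2 scale, and none was at 0 in any group. Dendritic cell markers summed to 124 and 127 CPM in KO EAE, 185 and 230 CPM in KO and 62.6 and 68.8 CPM in WT libraries, with 4 of 10 higher in KO than in WT. Regulatory T cell markers summed to 1548 and 1411 CPM in KO EAE, 1481 and 1413 CPM in KO and 2535 and 2433 CPM in WT libraries, with 9 of 10 lower in KO than in WT. In bulk RNA, a change in the number of cells of a type and a change in RNA per cell cannot be told apart. Macrophages are known to express Ptgs1, Hpgds and Alox5ap, and the part of these marker differences in the results on the pathway genes was not tested.

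Of the 10 genes, Ptgs1, Hpgds, Hpgd and Alox5ap were higher in KO than in WT libraries and passed the threshold, an adjusted p of 0.05 in a fit over all 14548 genes tested. None was lower past the threshold. Across all genes tested, 9.41% were called higher and 3.46% lower. All 10 members passed the filter on low counts. The genes were picked with results of both tables known, so their differences are a description, no p-value of these fits is given for single members, and the count is set beside the background without further reading. Their median KO minus WT log2 difference was 1.76, beside -0.01 over all genes tested. KO and WT libraries did not overlap for 8 of the 10: Ptgs1, Hpgds, Hpgd, Alox5, Alox5ap and Ltc4s were higher, and Lta4h and Ptger4 were lower. Libraries that do not overlap in the same way were found for 32.7% of all genes tested in the higher direction and for 32.5% in the lower direction.

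**Figure D1:**
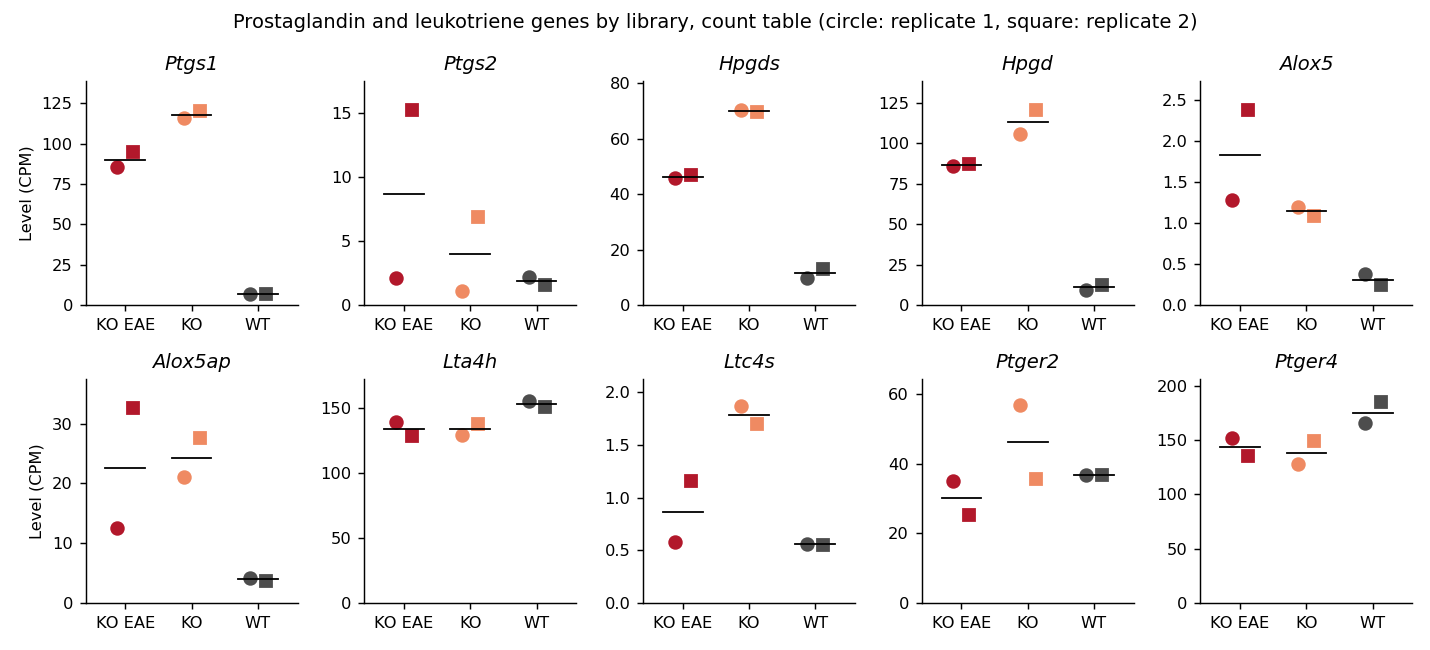
Level of each of the 10 genes in every library of the count table, in CPM on a linear axis that starts at 0, with KO EAE, KO and WT from left to right, 2 libraries per group (circle: replicate 1, square: replicate 2) and the mean as a line. Ptgs1, at 85.4 to 120 CPM in KO EAE and KO libraries, is set far above its 2 WT libraries, whereas the points of Lta4h and Ptger4 lie close together in all groups.

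Ptgs1 encodes the constitutive cyclooxygenase, and its gene spans chr2:36230426-36252272 on mm10. It had 85.4 and 94.7 CPM in KO EAE libraries, 116 and 120 CPM in KO libraries, and 6.69 and 6.85 CPM in WT libraries. All 4 libraries of Cre-carrying mice were far above both WT libraries, and each group was narrow. Ptgs1 averaged 118 ± 3.43 CPM in KO and 6.77 ± 0.115 CPM in WT libraries (SD, n = 2 each), a 17.4-fold ratio, the largest among the 10 genes. The fitted log2 difference, KO minus WT, was 4.12 ± 0.10 (SE). It was 4.09 to 4.16 when each of the 4 libraries was left out in turn, and it passed the threshold in all 4 fits.

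Ptgs2, the inducible cyclooxygenase on chr1:150100031-150108227, was low and uneven. It had 2.12 and 15.2 CPM in KO EAE libraries, 1.13 and 6.88 CPM in KO libraries, and 2.19 and 1.59 CPM in WT libraries. The second library was the higher in KO EAE, by 7.18-fold, and in KO, by 6.07-fold, so the KO libraries lay on both sides of the WT pair. The KO minus WT log2 difference was 1.07 ± 1.11 (SE), did not pass the threshold, and became -0.73 without KO replicate 2. Between the same libraries, the summed level of 10 B cell markers was 77.1 and 155 CPM in KO EAE and 88.6 and 145 CPM in KO, and that of 9 neutrophil markers was 62.6 and 133 CPM in KO EAE and 66.5 and 87.2 CPM in KO. The summed level of 8 platelet markers was 40.8 and 108 CPM in KO EAE and 43.0 and 67.3 CPM in KO. In WT libraries the sums were lower, at 58.6 and 49.0 CPM for B cell, 18.6 and 28.9 CPM for neutrophil and 25.6 and 20.1 CPM for platelet markers. The KO to WT ratio was 2.17 for B cell, 3.24 for neutrophil and 2.41 for platelet markers. Past the threshold as higher in KO were 1 of 10 B cell, 1 of 8 tested neutrophil and 1 of 8 platelet markers. In the normalized table the ratios were 1.03, 1.12 and 1.95. Summed markers of mast cells, basophils and eosinophils had 40.5 and 58.4 CPM in KO EAE. In KO they had 35.4 and 32.4 CPM, lower in the second library. The part of these markers in the split between replicates was not tested.

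Hpgds, the haematopoietic synthase of prostaglandin D2, lies at chr6:65117293-65144908. It had 45.8 and 46.9 CPM in KO EAE libraries, 70.4 and 69.6 CPM in KO libraries, and 9.94 and 13.0 CPM in WT libraries. The 3 groups did not overlap, with KO EAE between KO and WT. Hpgds averaged 70.0 ± 0.579 CPM in KO and 11.5 ± 2.18 CPM in WT libraries (SD, n = 2 each), 6.10-fold higher. The log2 difference of KO minus WT was 2.61 ± 0.14 (SE) and stayed between 2.44 and 2.81, past the threshold, in the 4 fits without 1 of these libraries.

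Hpgd encodes the dehydrogenase that inactivates prostaglandin E2 and related prostaglandins, and it lies at chr8:56294585-56321043. Its levels were 86.2 and 87.0 CPM in KO EAE libraries, 106 and 120 CPM in KO libraries, and 9.44 and 12.7 CPM in WT libraries. The order of the groups was that of Hpgds, and again no libraries overlapped. Hpgd averaged 113 ± 10.4 CPM in KO and 11.1 ± 2.32 CPM in WT libraries (SD, n = 2 each), 10.2-fold higher. The KO minus WT log2 difference was 3.35 ± 0.16 (SE), with a range of 3.16 to 3.58 in the 4 fits that left out 1 of these libraries, all past the threshold.

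In the leukotriene branch, Alox5ap was the only one of 4 members to pass the threshold. Alox5ap, on chr5:149264767-149288153, encodes the membrane protein that presents arachidonic acid to Alox5. It had 12.5 and 32.6 CPM in KO EAE libraries, 21.0 and 27.5 CPM in KO libraries, and 4.19 and 3.73 CPM in WT libraries. Both WT libraries were below all others, and the KO EAE pair spanned the KO pair. Alox5ap averaged 24.3 ± 4.60 CPM in KO and 3.96 ± 0.323 CPM in WT libraries (SD, n = 2 each), with a KO minus WT log2 difference of 2.61 ± 0.47 (SE). The call rested on all 4 libraries: the difference was 2.80 without KO replicate 1, 2.41 without KO replicate 2, 2.71 without WT replicate 1 and 2.53 without WT replicate 2, and it missed the threshold each time.

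Alox5 itself, the lipoxygenase that makes leukotriene A4, lies at chr6:116410077-116461178 and was near the limit of detection. It had 20 and 37 reads (1.28 and 2.37 CPM) in KO EAE libraries, 21 and 16 reads (1.19 and 1.09 CPM) in KO libraries, and 6 and 4 reads (0.375 and 0.245 CPM) in WT libraries. The groups did not overlap, and the KO minus WT log2 difference of 1.86 ± 0.53 (SE) did not pass the threshold in the fit of all 6 libraries. Ltc4s, which joins leukotriene A4 to glutathione, lies at chr11:50236461-50238616. It had 9 and 18 reads (0.577 and 1.15 CPM) in KO EAE libraries, 33 and 25 reads (1.87 and 1.70 CPM) in KO libraries, and 9 reads in each WT library (0.562 and 0.550 CPM). Its KO minus WT log2 difference of 1.67 ± 0.46 (SE) also missed the threshold in the fit of all 6 libraries. Both Alox5 and Ltc4s passed it when KO EAE replicate 1 or 2 was left out of the shared estimate of spread, with log2 differences of 1.85 and 1.86 for Alox5 and 1.66 and 1.68 for Ltc4s.

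Lta4h, the hydrolase that makes leukotriene B4, lies at chr10:93453411-93484875 and was abundant in every library. It had 139 and 128 CPM in KO EAE libraries, 129 and 137 CPM in KO libraries, and 155 and 150 CPM in WT libraries. Both KO pairs were below the WT pair, and the KO minus WT log2 difference was -0.20 ± 0.08 (SE), short of the threshold. Lta4h and Alox5 are expressed at very different levels per length: Lta4h averaged 21.8 CPM per kb of exon in KO and 25.0 CPM per kb in WT libraries, and Alox5 0.278 CPM per kb in KO and 0.0754 CPM per kb in WT libraries.

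Neither receptor passed the threshold. Ptger2, the EP2 receptor gene at chr14:44988195-45003820, had 35.0 and 25.3 CPM in KO EAE libraries, 57.0 and 35.5 CPM in KO libraries, and 36.9 and 36.7 CPM in WT libraries. The KO libraries lay on both sides of the WT pair, with a KO minus WT log2 difference of 0.33 ± 0.25 (SE) that became -0.05 without KO replicate 1. Ptger4, the EP4 receptor gene at chr15:5206661-5244187, had 152 and 136 CPM in KO EAE libraries, 128 and 149 CPM in KO libraries, and 166 and 185 CPM in WT libraries. Both WT libraries were the highest, and the KO minus WT log2 difference was -0.34 ± 0.11 (SE), short of the threshold. Exons of Ptger4 overlap those of Ttc33 on the opposite strand, which had 4291 reads over the 6 libraries, and since no strand setting is stated, reads from the overlap cannot be told apart.

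The 4 genes past the threshold were also those whose log2 difference lay within the span of the macrophage markers. This was not particular to macrophages. The wider spans of dendritic cell markers, 0.13 to 4.87, and neutrophil markers, 0.59 to 4.74, held the same 4 genes and Ptgs2, Alox5 and Ltc4s. The dendritic span also held Ptger2, at 0.33. The ratios of KO to WT means were 17.4 for Ptgs1, 10.2 for Hpgd, 6.10 for Hpgds and 6.13 for Alox5ap. The ratio of the summed macrophage markers was 7.80. Ptgs1 and Hpgd thus had larger ratios than the marker sum and Hpgds and Alox5ap smaller ones. Summed markers of mast cells, basophils and eosinophils, which are known sites of Hpgds, Alox5 and Ltc4s expression, had 40.5 and 58.4 CPM in KO EAE and 35.4 and 32.4 CPM in KO libraries, 4.15-fold and 2.84-fold of the WT mean, with 3 of 10 tested higher in KO than in WT. The part of these cells in the result was not tested.

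The order of the genes by level per length of exon differed between the groups. In KO libraries Hpgd led with 67.1 CPM per kb, followed by Ptgs1 with 30.4, Lta4h with 21.8, Ptger4 with 20.8, Alox5ap with 17.1, Hpgds with 10.9 and Ptger2 with 8.91 CPM per kb. In WT libraries Ptger4 led with 26.4 CPM per kb, followed by Lta4h with 25.0, Ptger2 with 7.09, Hpgd with 6.58, Alox5ap with 2.79, Hpgds with 1.79 and Ptgs1 with 1.74 CPM per kb. The receptors and the hydrolase were thus the leading transcripts in WT libraries, and the breakdown enzyme and the cyclooxygenase Ptgs1 the leading ones in KO libraries. The KO EAE means kept the KO order for these 7 genes, with 51.5 CPM per kb for Hpgd and 23.2 CPM per kb for Ptgs1. In KO EAE, however, the libraries of Ptgs1, Lta4h, Ptger4 and Alox5ap all overlapped, at 8.81 to 24.4 CPM per kb, as did those of Ptgs2 with Ltc4s and with Alox5. Ltc4s, Ptgs2 and Alox5 were last in every group, at 0.0754 to 1.89 CPM per kb. Neighbours whose libraries overlapped were Lta4h with Ptger4, Ptger4 with Alox5ap, Hpgds with Ptger2, and Ptgs2 with Alox5 in KO, and Ptger4 with Lta4h, Ptger2 with Hpgd, and Hpgds with Ptgs1 in WT.

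**Figure D2:**
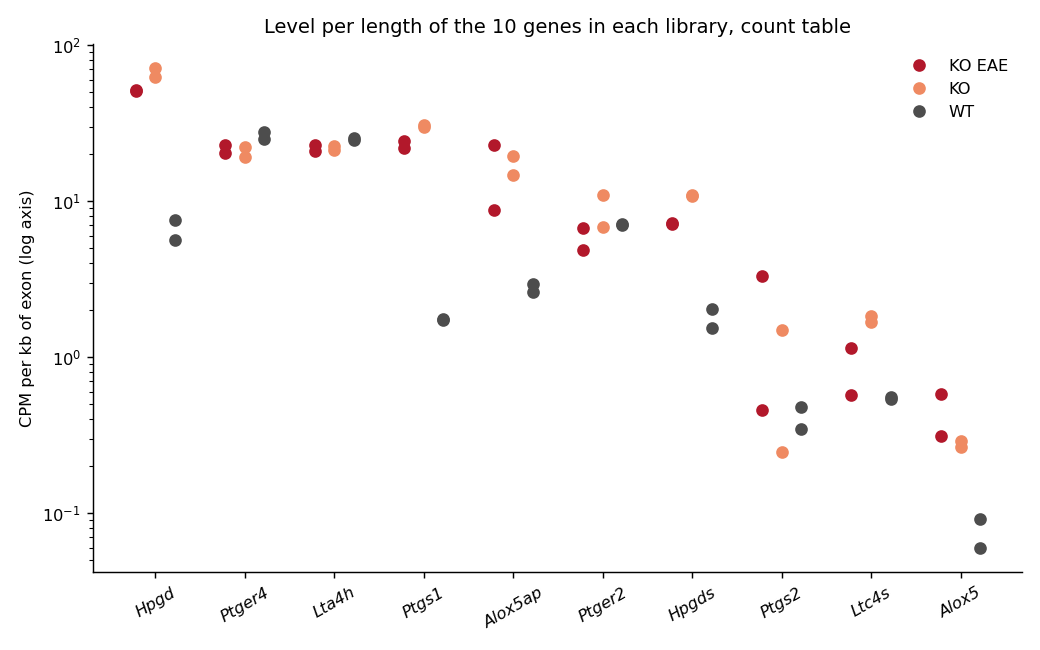
Level per length of each gene, in CPM per kb of exon on a log axis, for KO EAE, KO and WT, with 1 point per library. Hpgd and Ptgs1 are at the top in KO (67.1 and 30.4 CPM per kb on average), and Ptger4 and Lta4h are at the top in WT (26.4 and 25.0 CPM per kb).

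In mice with EAE, none of the 10 genes passed the threshold against KO at steady state. Only 2 of the 14548 genes tested did, which is 0.0137%, both higher (Nr4a3 and Dusp4, named after their values were seen). An unadjusted p under 0.05 was found for 4 of the 10 pathway genes and for 1378 of all genes tested, or 9.47%. In DESeq2, which called 57 genes higher and 110 lower, Hpgds alone among the 10 passed, as lower in KO EAE. The libraries did not overlap for Alox5, which was higher in KO EAE, and for Ptgs1, Hpgds, Hpgd, Ltc4s and Ptger2, which were lower. Across all genes tested, 16.9% did not overlap in the higher direction and 21.4% in the lower direction.

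Ltc4s had a KO EAE minus KO log2 difference of -1.04 ± 0.44 (SE), which was -0.62 without KO EAE replicate 1 and -1.62 without KO EAE replicate 2. The KO EAE minus KO log2 difference was -0.39 ± 0.08 for Ptgs1, -0.59 ± 0.13 for Hpgds and -0.38 ± 0.14 for Hpgd (SE). The summed macrophage markers were 0.842-fold of their KO level in KO EAE, with 9 of 15 lower without overlap and none called, and their part in these differences was not tested. For Ptger2 the log2 difference was -0.62 ± 0.25 (SE), and leaving out KO replicate 1 gave -0.24, leaving out KO replicate 2 gave -0.91. Alox5 had 0.68 ± 0.44 (SE), with 1.05 without KO EAE replicate 1 and 0.17 without KO EAE replicate 2. Alox5ap, with -0.10 ± 0.43, Lta4h, with 0.0034 ± 0.08, and Ptger4, with 0.06 ± 0.11 (SE), had overlapping libraries, and so had Ptgs2, with 1.12 ± 1.05 (SE).

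Set against the same WT libraries, and so not independent of the KO values, the KO EAE libraries gave Ptgs1 a log2 difference of 3.73 ± 0.10, Hpgd 2.97 ± 0.15, Hpgds 2.01 ± 0.14, Alox5ap 2.51 ± 0.47 and Alox5 2.53 ± 0.51 (SE). These 5 genes passed the threshold, and 7.41% of all genes tested were called higher in this comparison and 1.95% lower. Genotype and EAE cannot be told apart in it. Ptgs1, Hpgds and Hpgd stayed past the threshold when each library of the compared groups was left out. Alox5 lost the call without KO EAE replicate 2 (log2 difference 2.03), KO replicate 1 (2.52), KO replicate 2 (2.54), WT replicate 1 (2.88) or WT replicate 2 (2.27). Alox5ap lost it without KO replicate 1 (2.50), KO replicate 2 (2.52), WT replicate 1 (2.62) or WT replicate 2 (2.44), although KO libraries enter this comparison only through the shared spread. It kept the call without KO EAE replicate 1 (3.03) or KO EAE replicate 2 (1.66).

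The second table gave a different size to the same comparison. It holds 2 KO and 2 WT libraries with the same names, as read counts that the authors divided by size factors, and no KO EAE library. Whole reads were recovered for 100% of the values at a tolerance of 0.02 reads, with 16884434 to 25335011 reads per library. These are not the reads of the count table: across 22544 shared genes, WT replicate 1 of the count table had a Pearson r of 0.951 with its namesake and 0.956 with WT replicate 2, a description over genes that are no replicates. Both Ptgs2 and Alox5 are listed at 0 in all 4 libraries of this table. Among 12231 shared genes with a mean of at least 20 reads in the count table, 90 were listed at 0 in all 4, Ptgs2 among them, so a listed 0 is given as such and not read as absence.

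Ptgs1 had normalized read counts of 1011 and 732 in KO libraries, against 94.2 and 408 in WT libraries. Hpgds had 523 and 334 in KO libraries, against 42.0 and 264 in WT libraries. In both genes WT replicate 2 was far above WT replicate 1, by 4.33-fold for Ptgs1 and 6.28-fold for Hpgds, and still below both KO libraries. Hpgd had 915 and 914 in KO libraries, against 247 and 297 in WT libraries, with both pairs narrow. Alox5ap had 78.6 and 79.9 in KO libraries, against 39.5 and 33.4 in WT libraries. These 4 genes were higher in both KO than in both WT libraries, with ratios of means of 3.47 for Ptgs1, 3.36 for Hpgd, 2.80 for Hpgds and 2.17 for Alox5ap. Over all genes tested in this table, 23.5% did not overlap in this direction and 22.3% in the other.

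Lta4h had 7673 and 7104 in KO libraries, against 9099 and 7561 in WT libraries, a log2 difference of -0.17 ± 0.12 (SE). Ptger2 had 1291 and 1285 in KO libraries, against 1321 and 1570 in WT libraries, and Ptger4 had 2558 and 2091 in KO libraries, against 2902 and 2912 in WT libraries. Ptger2 and Ptger4 were lower in both KO libraries than in both WT libraries, and Lta4h overlapped. In the count table it was Ptger2 that overlapped and Lta4h that did not. Ltc4s had 16 and 5 recovered reads in KO libraries and is listed at 0 in both WT libraries, which gives no fold.

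**Figure D3:**
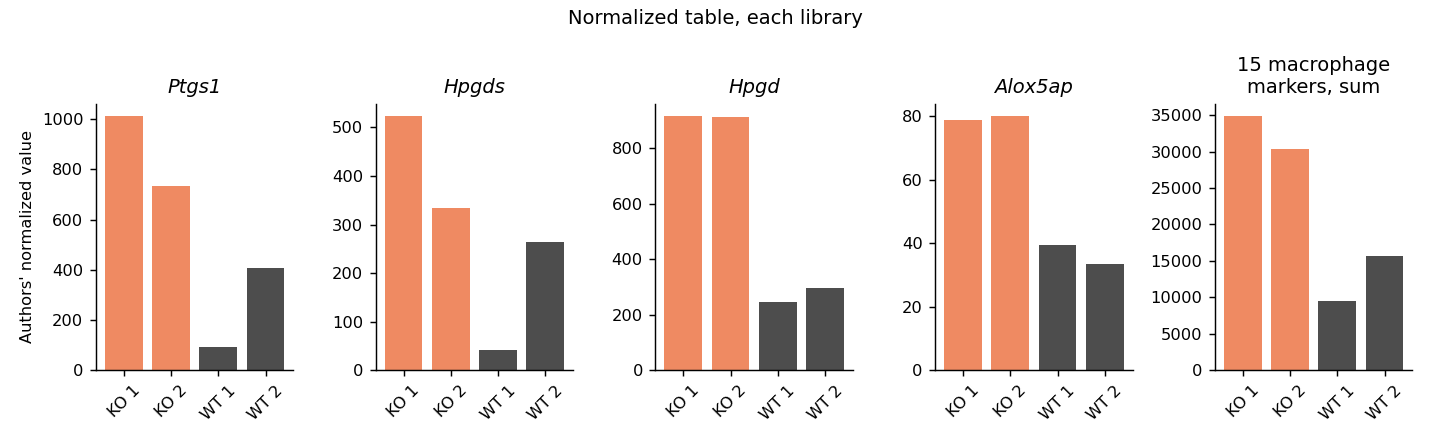
Authors' normalized values of Ptgs1, Hpgds, Hpgd and Alox5ap and of the summed 15 macrophage markers, as 1 bar per library on axes that start at 0, with KO left of WT. The WT bars of Ptgs1 (94.2 and 408) and Hpgds (42.0 and 264) are far apart, and those of Hpgd (247 and 297) are close together.

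In limma on log2(value + 1), the KO minus WT difference was 2.12 ± 0.61 for Ptgs1, 1.97 ± 0.77 for Hpgds, 1.75 ± 0.23 for Hpgd and 1.10 ± 0.60 for Alox5ap (SE, on the log2(value + 1) scale). None of the 7 members that passed the filter on low values was called at an adjusted p of 0.05. Just 1 of 12208 genes was called, or 0.00819% (Fcer1g, named after its values were seen), while 1585 genes (13.0%) and 3 of the 7 members had an unadjusted p under 0.05. A count test in edgeR on the recovered reads called 12 genes, or 0.0979%, and none of the 10, of which 2 had an unadjusted p under 0.05. The differences moved with the WT library left out, the lone one being assumed to vary like the KO pair. Without WT replicate 2, limma called Ptgs1, Hpgds and Hpgd, with log2 differences of 3.18, 3.28 and 1.88, among 432 genes called higher. Without WT replicate 1, the log2 difference was 1.07 for Ptgs1 and 0.66 for Hpgds, neither called, and 1.62 for Hpgd, which was called among 73 genes higher.

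**Figure D4:**
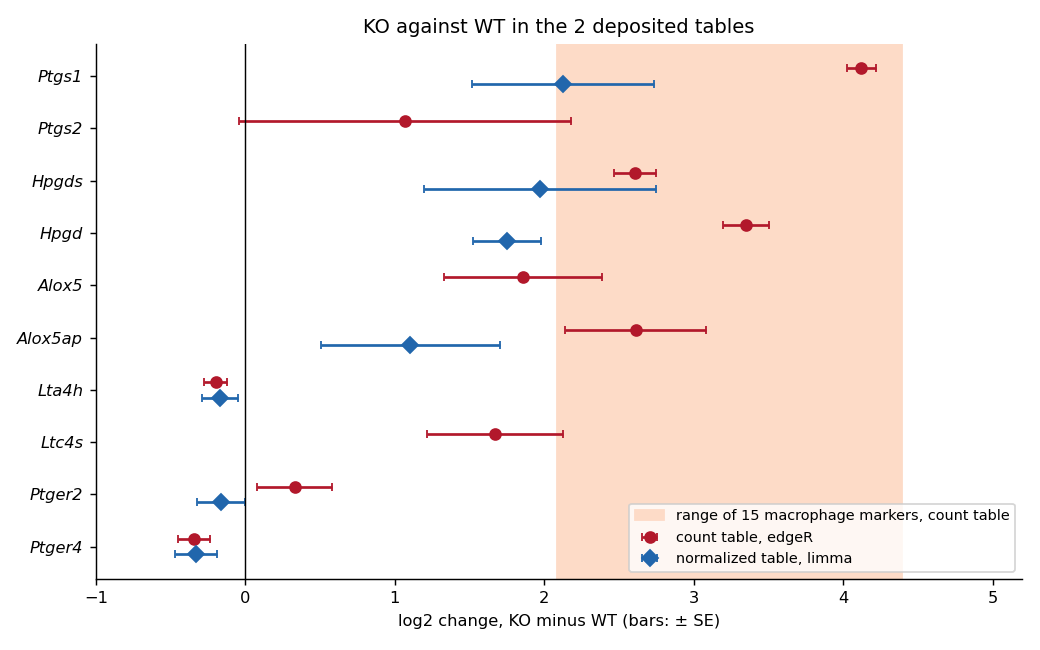
Fitted log2 differences, KO minus WT, with bars of 1 SE either side, for the 10 genes in the count table (circles, edgeR) and for the 7 tested in the normalized table (diamonds, limma), with a shaded band for the span of the 15 macrophage markers in the count table (2.08 to 4.40). The circles of Ptgs1, Hpgd, Hpgds and Alox5ap lie inside the band, those of the other 6 genes lie below it, and the diamonds of these 4 genes lie left of their circles.

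The authors' deposited table of fold changes, in which shrinkage is not stated, gives Hpgd a log2 fold change of 1.22 with an adjusted p of 3.87e-07. The mean levels in it, 561 for Ptgs1 and 593 for Hpgd, are those of the normalized table, so it is no separate source of data. On the recovered reads, edgeR gave larger log2 differences, 1.75 for Hpgd, 1.79 for Ptgs1, 1.48 for Hpgds and 1.13 for Alox5ap. For Lta4h (-0.17), Ptger2 (-0.16) and Ptger4 (-0.32) it gave values near the authors'. Whether shrinkage made this gap was not tested. For Ptgs1 the authors' deposited table gives 0.80 with an adjusted p of 0.0132, and for Hpgds 0.48 with 0.228. The authors' deposited table lists Ptger4 at -0.28 (adjusted p 0.372), Lta4h at -0.16 (0.616), Alox5ap at 0.23 (0.648) and Ptger2 at -0.14 (0.814). Ptgs1 and Hpgd were thus called both in the count table and in the authors' deposited table. Hpgds and Alox5ap were called in the count table but not in the authors' deposited table. The genes were picked with results of the count and normalized tables known, so these calls are a description and no independent support.

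Macrophage markers were set beside these values too. Their summed normalized read count was 34822 and 30351 in KO libraries, against 9572 and 15731 in WT libraries, a ratio of 2.58. The libraries ranked by this sum in the same order as by Ptgs1, Hpgds and Hpgd, with KO replicate 1 the highest and WT replicate 1 the lowest. For Hpgd the KO libraries were nearly equal, at 915 and 914. Alox5ap ranked the other way within both pairs, with 78.6 and 79.9 in KO and 39.5 and 33.4 in WT libraries. Hpgd had 247 in WT replicate 1 and 297 in WT replicate 2, a smaller step than the marker sum made between them. The part of these markers in the values of the pathway genes was not tested.

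Outside the 10 genes, 60 other genes of the pathway were listed by role, and 47 passed the filter on low counts. The list was chosen with earlier results of these data known, so its counts and adjusted p-values are a description. Of the 47, 17 were higher in KO than in WT libraries and none was lower, beside 9.41% and 3.46% of all genes tested. Their median log2 difference was 0.46, beside -0.01 over all genes. Genes that release or process arachidonate and its lipid sources were higher in 5 of 10 cases. Pla2g4a, the cytosolic phospholipase that frees arachidonic acid, averaged 34.9 ± 5.81 CPM in KO and 2.23 ± 0.209 CPM in WT libraries (SD, n = 2 each; log2 difference 3.97, edgeR adjusted p = 0.000787). The secreted phospholipase Pla2g2d had a log2 difference of 3.62 (edgeR adjusted p = 0.000836). Pla2g7, which hydrolyses platelet-activating factor and does not itself feed the cyclooxygenases, had 4.15 (0.000123), and the monoacylglycerol lipase Mgll 2.89 (0.000857).

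Terminal prostanoid synthases were higher in 4 of 8 cases. Tbxas1, thromboxane synthase, averaged 67.0 ± 6.65 CPM in KO and 3.46 ± 0.297 CPM in WT libraries (SD, n = 2 each; log2 difference 4.27, edgeR adjusted p = 4.16e-05). Ptgis, prostacyclin synthase, averaged 47.2 ± 7.01 CPM in KO and 2.10 ± 0.492 CPM in WT libraries (SD, n = 2 each; log2 difference 4.49, edgeR adjusted p = 0.000106). Prxl2b, a prostaglandin F synthase, had a log2 difference of 2.94 and the carbonyl reductase Cbr3 of 3.45 (edgeR adjusted p = 9.61e-05 and 0.00133). The prostaglandin E synthases did not pass: the log2 difference was 1.72 for Ptges, -0.02 for Ptges2 and -0.11 for Ptges3. The authors' deposited table gives Tbxas1 a log2 fold change of 0.85 with an adjusted p of 0.00718, and Ptgis 0.38 with 0.219. Among the phospholipases named above, it gives Pla2g7 0.65 with 0.0605, Pla2g4a 0.34 with 0.476 and Pla2g2d 0.35 with 0.529, none of them called.

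None of the 5 other prostanoid receptor genes tested was called, with log2 differences from -1.09 for Ptger3 to 0.79 for Ptgir. In the authors' deposited table, however, the thromboxane receptor gene Tbxa2r has a log2 fold change of -0.72 with an adjusted p of 0.00187. Among 6 receptors for leukotrienes and related lipids, 3 were higher: Cmklr1, the chemerin receptor, by 4.92 (edgeR adjusted p = 0.000215), Fpr2, the formyl peptide and lipoxin receptor, by 4.21 (0.000955), and Pparg, a nuclear receptor that binds prostaglandin D2 derivatives, by 4.20 (0.000247). None of these 3 is a leukotriene receptor, and the difference between the receptor classes was not tested. Aloxe3, a lipoxygenase known from the epidermis, had 3.94 (edgeR adjusted p = 0.00574) and lost the call without WT replicate 2 (0.0511). The 5 other genes past the threshold, outside the 12 with the largest differences and named after their values were seen, were Slco2a1, a prostaglandin transporter, with a log2 difference of 2.45, Ggt5, which processes leukotriene C4, with 2.53, Cyp4f16 with 1.24, the diacylglycerol lipase Daglb with 0.89 and Coro1c with 0.39. Coro1c encodes a coronin and no enzyme of the pathway. Apart from Aloxe3, the 12 kept their call without any 1 of the 4 KO and WT libraries. Of the 12, 10 were tested in the normalized table, and neither limma nor edgeR on recovered reads called any. Their limma log2 differences were smaller for several, with 1.10 for Pla2g4a, 0.99 for Pla2g7, 0.70 for Pla2g2d and 1.99 for Tbxas1. Cmklr1 was not tested there and overlapped, with normalized read counts of 6.62 and 1.72 in KO libraries, against 7.64 and 1.08 in WT libraries. The macrophage markers were higher in the same KO libraries of the count table, and their part in these differences was not tested.

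**Figure D5:**
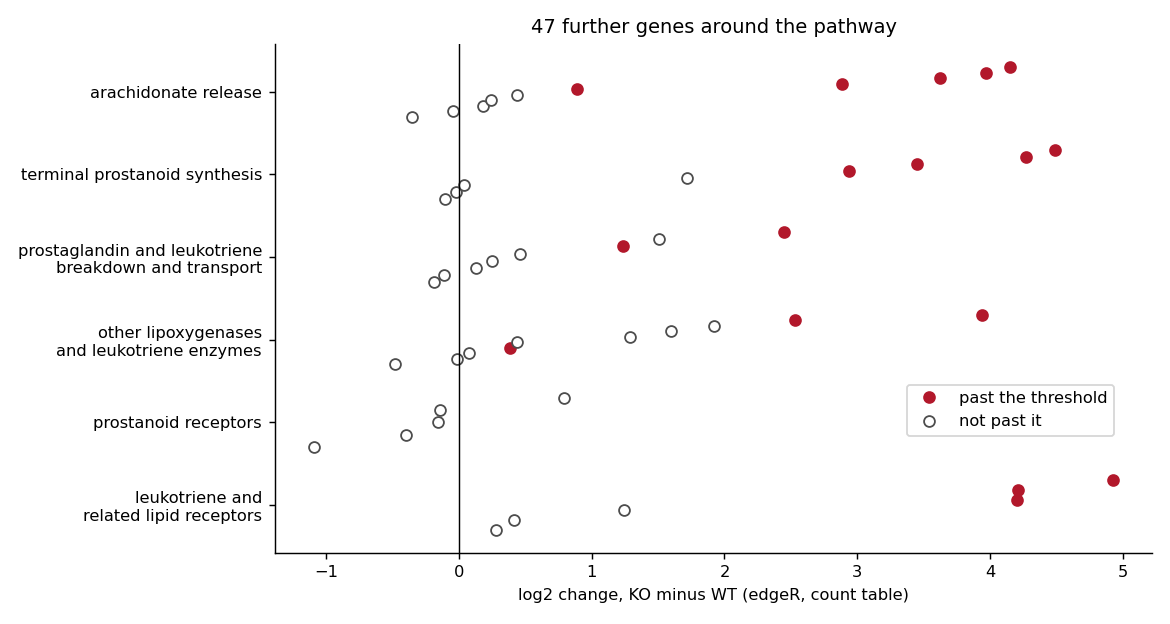
Fitted log2 differences, KO minus WT, of the 47 other pathway genes tested, grouped by role, with filled points for genes past an adjusted p of 0.05. All 17 filled points lie to the right of 0, and none is among the 5 prostanoid receptors.

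In KO EAE against KO, none of the 47 other pathway genes was called, and their median log2 difference was -0.07. Signalling below the receptors was followed with a list of the cyclic AMP pathway, also chosen with earlier results known and so descriptive. It held 23 genes, all of which were tested. Of these, 5 were higher and 1 lower in KO than in WT libraries, beside 9.41% and 3.46% of all genes tested, and the median log2 difference was 0.02. Pde3b, a phosphodiesterase that degrades cyclic AMP, averaged 218 ± 53.2 CPM in KO and 65.3 ± 2.01 CPM in WT libraries (SD, n = 2 each; log2 difference 1.74, edgeR adjusted p = 0.00207). It kept the call without any 1 of these 4 libraries, and its log2 difference in the normalized table was 1.25 (limma adjusted p = 0.0667). The phosphodiesterases Pde4a, with 1.64, and Pde7a, with 0.59, and the protein kinase A regulatory subunits Prkar1b, with 1.58, and Prkar2a, with 0.76, were higher, and the coactivator Crebbp was lower, with -0.55. Prkar2a, Pde7a and Crebbp lost the call without any 1 of the 4 libraries, and Pde4a and Prkar1b in 3 of 4 such fits.

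The genes most like a member were sought among 10960 genes by the root mean square difference of centred log2 levels over the 6 libraries. For Ptgs1 they were Cd300a, at 0.07, Zfp385a, at 0.09, and Aldh3b1, at 0.10. The nearest to Hpgd were Marcks, at 0.09, Cd302, at 0.10, and Clec4n, at 0.12, and the nearest to Hpgds were Crip2, Tmem37 and Ppm1n, at 0.09 to 0.12. Il12rb2, at 0.16, was nearest to Alox5ap, followed by Parvb and Pld1. Ptgs2 had no near neighbour: Ceacam1, Eef1a1 and F13a1 came first, at 0.37 to 0.48. Gapvd1 was nearest to Lta4h, at 0.01, Mynn to Ptger4, at 0.03, and Tceanc to Ptger2, at 0.04. Ltc4s was nearest to Alpk1, at 0.09. Among the 10 genes themselves, Hpgd was the one closest to Ptgs1, at 0.36, ranked 203 among all genes.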

How the data were processed

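Regulatory T cell RNA libraries from KO EAE, KO and WT mice (2 each) had been sequenced on an Illumina instrument, per the labels' protocols. HISAT2, HTSeq and DESeq2 are named with genome mm10, per the submitters' processing notes, without versions, annotation or strand setting. Of 3 tables, 1 gives raw read counts as deposited by the authors for 6 libraries. Another, for 4 libraries, gives a signal, read counts that the authors divided by size factors. The third gives log2 fold changes, scores of the test statistic and p-values as deposited, with no per-library values. Rows without a gene name (25 and 27, at most 0.217% and 0.284% of a library) were left out.

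Counts were tested in edgeR 4.0.16 (R 4.3.3; quasi-likelihood, TMM, minimum count 10, 3 residual degrees of freedom) on all 6 libraries together, with Benjamini-Hochberg adjustment over 14548 genes. Normalized values of at least 10 in 2 libraries were tested in limma 3.58.1 on log2(value + 1), over 12208 genes. For edgeR the standard error is the log2 difference over the root of F, and for limma it is that of the moderated fit. DESeq2 1.42.0, other scalings and filters, a replicate block, the compared groups alone and each library left out were alternatives. The pipeline was tested on simulated data. Replicates differed by more than sampling noise. Exon lengths are from GENCODE M21 on mm10. The members, lists and motifs were chosen with earlier results of these data known. All 10 members were described; other genes were named where past the threshold with a mean of at least 1 CPM, at most 12 per list by size of change, and, for likeness, the nearest 3 genes by root mean square difference. The likeness result for Alox5 is not reported here.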

Additional observations from a re-analysis of the deposited data

How the results depend on the processing

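In KO against WT, the calls of Ptgs1, Hpgds, Hpgd and Alox5ap held under the other scalings, DESeq2, no filter on low counts, the compared groups alone and the replicate block. With the compared groups alone, 1100 genes were lower, against 504. Recovered reads of the normalized table gave 8 higher, 4 lower and 0 of the 10 genes, and a Ptger2 log2 difference of -0.16. With 1 library left out, 721 to 1966 genes were higher, 100 to 1214 lower and 3 to 6 of the 10 higher, with Ptgs2 from -0.73 to 1.87 and Ptger2 from -0.0490 to 0.63.

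In KO EAE against KO, DESeq2 called 57 higher and 110 lower, 1 of the 10 among them. No filter gave 1 lower, and the compared groups alone or the replicate block gave 0 higher. Lta4h was -0.0299 with library totals, -0.0209 in DESeq2 and -0.0215 with no filter. With 1 library left out, 0 to 207 genes were higher and 0 to 106 lower, the high ends both without KO EAE replicate 1, and log2 differences ran from -0.90 to 2.93 for Ptgs2, -0.96 to 0.44 for Alox5ap, -0.0526 to 0.0618 for Lta4h and -0.0567 to 0.180 for Ptger4.

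In KO EAE against WT, DESeq2 called 620 lower, and the compared groups alone gave 649 higher, 133 lower and 3 of the 10 higher. Leaving out 1 library gave 542 to 2105 higher, 61 to 1657 lower and 3 to 5 of the 10 higher. The upper ends for all genes came without KO EAE replicate 1.

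In the normalized table, a pseudocount of 5 gave 18 higher, 7 lower and 1 of the 10, and the replicate block 36 higher, 15 lower and 1 of the 10, Hpgd both times. Leaving out 1 library gave 1 to 432 higher, 0 to 120 lower and 0 to 3 of the 10. The cause of these shifts was not tested.

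Replicate numbers did not pair the samples: deviations of same-numbered libraries correlated across genes at 0.04 for KO and WT, 0.23 for KO EAE and KO and -0.21 for KO EAE and WT. The replicate block gave 1295 higher and 373 lower in KO against WT, and in the block Pde7a lost its call in KO against WT (edgeR adjusted p = 0.0693) and Alox5 its call in KO EAE against WT. Alox5 and Ltc4s had 4 to 37 reads a library, so small differences in them were not detectable at this depth.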
